A study of Mus musculus with 12 samples.

Results

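Deletion of TET proteins in mice fed a normal diet (ND) was examined in white fat of the epididymis (eWAT, a visceral depot of male mice). RNA was sequenced from whole fat pads of C57BL/6 mice labelled wild type (ND_WT, 3 libraries) or TET KO (ND_TKO, 3 libraries). The other 6 of the series' 12 libraries came from the same genotypes on a high-fat diet (HFD_WT and HFD_TKO, 3 each). All 15597 genes with at least 0.5 CPM (reads of a gene scaled to the total of its library) in at least 3 of the 12 libraries were compared, out of 25229 genes listed with a symbol. The series title places the ablation in adipocytes. The labels give neither the promoter that drove it, nor the deleted exons, the age of the mice, the make-up of the diets or the hour of collection. Each library is labelled as a biological replicate, and values are given below in the order of replicates 1, 2 and 3.

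TET proteins are dioxygenases that oxidise methylated cytosine, mostly where a cytosine is followed by a guanine (CG), and so open a route to its demethylation. DNA methylation was not measured here. White adipocytes store fatty acids as triglyceride in a large lipid droplet, release them when adrenergic signals raise cyclic AMP, and secrete hormones such as leptin, adiponectin, resistin and adipsin. In a lean fat pad the same tissue also holds vessels, progenitors, resident macrophages and a mesothelial cover, and in whole tissue fewer cells of a type and less RNA per cell cannot be told apart.

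The ND libraries held 20973140 to 22495971 reads, so 3 reads, the limit that a count of 0 allows, corresponded to 0.133 to 0.143 CPM (counting error only). The tissue label was checked against markers. Adipoq, which encodes adiponectin, stood at 4437 to 6448 CPM in the 6 ND libraries, and Ucp1, the uncoupling protein of brown fat, was at or below 0.0931 CPM in each of them. Of 16 markers of epididymis epithelium 14 were under the filter. The 16 together reached 3.44 CPM in ND_WT 1, 4.08 CPM in ND_TKO 2 and at most 0.985 CPM in the other ND libraries. ND_WT 3 stood apart from its group on the first principal component of the ND libraries (42.1% of the variance). There ND_WT 1 and 2 lay at 27.3 and 28.2, ND_WT 3 at -1.66 and the ND_TKO libraries between -26.2 and -9.76. On the second component (26.2%) ND_WT 3 lay at -27.2 and ND_TKO 2 as far out on the other side, at 26.2. The remaining libraries lay between -8.04 and 9.70 on it. ND_WT 3 held 32 tested genes at more than 2-fold above each other ND library, against 0 to 8 in the others. Results are therefore given with it and without it.

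With all libraries, 889 genes (5.7% of those tested) were called at an adjusted p of 0.05, 337 of them higher in ND_TKO (2.16%) and 552 lower (3.54%). TMM scaling, which corrects for the weight of abundant genes, gave 498 higher (3.19%) and 424 lower (2.72%), 5.91% together, so the balance of directions depends on the scaling. The median change of all tested genes was -0.06 as CPM and -0.01 with TMM scaling. Most called changes were small: the median size was 0.59 on the log2(CPM + 1) scale, which understates changes of low genes, and 179 called genes differed at least 2-fold (1.15% of those tested), 72 upward (0.462%) and 107 downward (0.686%). Without ND_WT 3 the total was 1853 (11.9%), with 875 higher (5.61%) and 978 lower (6.27%). A total of 811 genes (5.2%) were called in the same direction in both fits, 314 higher (2.01%) and 497 lower (3.19%). Of the 1042 genes called only without ND_WT 3, that library lay nearer to the ND_TKO mean than to the mean of ND_WT 1 and 2 for 938 (90.0%), against 136 of the 811 (16.8%). These sets were defined by calls made with or without that library, so this contrast is favoured by the choice. Changes below are given ± SE, with 3 libraries in each group. Counts of called members in the gene lists below stand beside these shares of all tested genes, with and without ND_WT 3. A set of 217 called genes, 71 higher and 146 lower, kept its call under all 18 other settings, which include leaving out each ND library in turn. Here and below, a gene that a setting filtered out or gave no adjusted p was not counted as losing its call there.

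**Figure D1:**
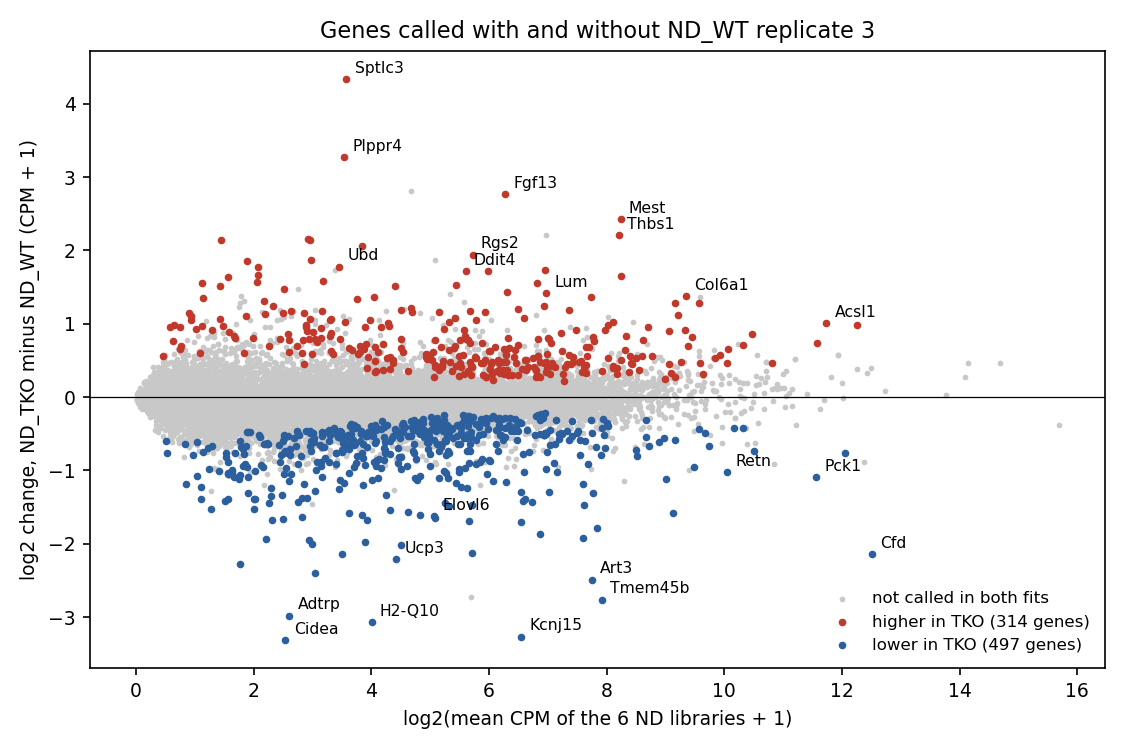
Change between genotypes against level for the 15597 tested genes. The x axis is log2 of the mean CPM + 1 over the 6 ND libraries, the y axis is the log2 change, ND_TKO minus ND_WT, and coloured points are the 314 higher (red) and 497 lower (blue) genes called with and without ND_WT replicate 3. The widest changes lie at low and middle levels, from 4.34 for Sptlc3 to -3.31 for Cidea, while Cfd, Pck1, Retn and Acsl1 are called genes of high level.

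Sptlc3 rose further than any other tested gene. It encodes a subunit of serine palmitoyltransferase, the enzyme that begins sphingolipid synthesis, and lies on chromosome 2, 139493913 to 139637061 of mm10. The ND_WT libraries held 5, 3 and 0 reads and the ND_TKO libraries 459, 504 and 466 reads, or 0.239, 0.139 and 0 CPM and 21.2, 23.4 and 20.7 CPM. The groups were far apart and all ND_WT values were at or near the limit of detection (log2 change 4.34 ± 0.13, adjusted p = 8e-09). Since the lower group is at that limit, the size of the change is set in part by the added 1 CPM. Of the 29 tested genes of sphingolipid synthesis and turnover 2 were higher and 1 lower (3 and none with TMM scaling; 4 and 4 without ND_WT 3), with a median change of -0.08. Plppr4 (chromosome 3, 117319145 to 117360876), a lipid phosphatase-related membrane protein known from synapses, was at 0.716, 0.277 and 3.38 CPM in ND_WT and 23.8, 18.4 and 17.1 CPM in ND_TKO (log2 change 3.28 ± 0.37, adjusted p = 5.4e-04). Both calls held under all 18 other settings.

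Among the falls, the lipid droplet gene Cidea was all but absent from ND_TKO, with 0, 2 and 2 reads against 206, 242 and 171 reads in ND_WT (log2 change -3.31 ± 0.18, adjusted p = 2.1e-06, also bounded by the added 1 CPM). A gene that overlaps it, B430212C06Rik, was also lower (log2 change -2.28, adjusted p = 2.1e-06), and whether reads were counted by strand is not given in the sources used here. The inward rectifier potassium channel gene Kcnj15 (chromosome 16, 95257558 to 95300260) was at 172, 174 and 159.8 CPM in ND_WT and 15.9, 19.5 and 14.8 CPM in ND_TKO (log2 change -3.27 ± 0.18, adjusted p = 2.1e-06). Gm31641, a gene model that overlaps it, was lower too (log2 change -1.39, adjusted p = 0.0015). H2-Q10 (chromosome 17, 35470089 to 35474563), a class I histocompatibility gene whose close relatives may share its reads, stood at 38.1, 35.4 and 10.7 CPM in ND_WT and 2.26, 1.44 and 2.58 CPM in ND_TKO (log2 change -3.06 ± 0.37, adjusted p = 9.3e-04). ND_WT 3 was the lowest of the ND_WT libraries for H2-Q10 but still above every ND_TKO library, and without it the change was -3.63 (adjusted p = 4.8e-06).

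The 250 bases before the start site of the 2 furthest rises and the 2 furthest falls that could be shown are printed because CG pairs are the main target of TET enzymes. They are from RefSeq (GRCm38.p6, the mm10 assembly), 5′ to 3′ on the strand of the gene, with every CG in capitals. Sptlc3 is at chr2:139493663-139493912 (plus strand), Plppr4 at chr3:117360877-117361126 (minus strand), Kcnj15 at chr16:95257308-95257557 (plus strand) and H2-Q10 at chr17:35469839-35470088 (plus strand).
Sptlc3: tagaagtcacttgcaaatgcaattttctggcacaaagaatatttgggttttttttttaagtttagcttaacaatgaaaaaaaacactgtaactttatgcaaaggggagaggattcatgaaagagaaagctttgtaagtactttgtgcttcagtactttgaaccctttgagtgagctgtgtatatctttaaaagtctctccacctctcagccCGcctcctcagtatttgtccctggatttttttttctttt
Plppr4: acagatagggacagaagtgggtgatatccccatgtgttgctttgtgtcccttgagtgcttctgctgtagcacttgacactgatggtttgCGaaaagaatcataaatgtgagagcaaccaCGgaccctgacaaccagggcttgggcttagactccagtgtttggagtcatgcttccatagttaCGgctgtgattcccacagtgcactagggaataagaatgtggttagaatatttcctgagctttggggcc
Kcnj15: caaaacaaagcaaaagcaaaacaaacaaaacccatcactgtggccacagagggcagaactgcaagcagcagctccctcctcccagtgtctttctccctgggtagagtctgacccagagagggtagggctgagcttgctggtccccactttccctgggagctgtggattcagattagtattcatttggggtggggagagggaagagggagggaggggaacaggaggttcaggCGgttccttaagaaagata
H2-Q10: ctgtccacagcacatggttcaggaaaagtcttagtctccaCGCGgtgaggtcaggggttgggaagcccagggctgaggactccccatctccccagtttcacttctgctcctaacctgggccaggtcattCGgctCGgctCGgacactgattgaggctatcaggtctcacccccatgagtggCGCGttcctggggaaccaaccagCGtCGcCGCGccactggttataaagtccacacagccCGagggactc

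The Sptlc3 and Kcnj15 stretches each hold 1 CG, that of Plppr4 holds 3 and that of H2-Q10 holds 12. Over 32851 RefSeq promoter stretches of the same 250 bases the median was 6 CG pairs, and 92.1% held at least 1. A stretch with at most 1 CG occurred in 18.8% of them, with at most 3 in 37.8% and with at most 12 in 68.5%. One of these genes that rose and one that fell thus share a CG-poor stretch, and the other fall lies on the CG-rich side of the median. Promoter sequences matched fewer than 80% of the called genes (78.3% of the higher and 74.7% of the lower), so base composition was not compared over them.

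Of the other large rises 6 genes are described together here, out of order of size and with their values known. Mest and Thbs1, given in the next paragraph, rose further than any of the 6 except Fgf13. Fgf13, an intracellular fibroblast growth factor that binds sodium channels, stood at 13.8, 7.70 and 50.2 CPM in ND_WT and 159.5, 114 and 113 CPM in ND_TKO (log2 change 2.77 ± 0.46, adjusted p = 0.0051). Unc79, a subunit of a sodium leak channel, stood at 0.859, 0.461 and 5.75 CPM in ND_WT and 8.86, 13.4 and 10.4 CPM in ND_TKO (log2 change 2.16 ± 0.44, adjusted p = 0.015). Cadps, which primes secretory vesicles, stood at 0.668, 0.922 and 5.43 CPM in ND_WT and 8.77, 13.2 and 11.7 CPM in ND_TKO (log2 change 2.14 ± 0.42, adjusted p = 0.014). In these 3 genes ND_WT 3 lay between the groups, above ND_WT 1 and 2 and below each ND_TKO library, and leaving it out widened the changes to 3.50 (adjusted p = 8.6e-06), 2.83 (adjusted p = 3.4e-05) and 2.75 (adjusted p = 1.1e-04). The nicotinic receptor subunit gene Chrna2 stood at 4.39, 1.98 and 1.23 CPM in ND_WT and 12, 12.3 and 9.25 CPM in ND_TKO (log2 change 1.87 ± 0.29, adjusted p = 0.0035), with ND_WT 3 the lowest of all. Dpysl3, a cytoskeletal gene of growing neurites, stood at 20.03, 19.9 and 53.7 CPM in ND_WT and 101, 93.5 and 87.2 CPM in ND_TKO (log2 change 1.72 ± 0.28, adjusted p = 0.0048). Vstm2b was at 0.668, 0.554 and 1.64 CPM in ND_WT and 6.09, 6.02 and 4.45 CPM in ND_TKO (log2 change 1.77 ± 0.25, adjusted p = 0.0021). Markers of nerve were read beside them, since Fgf13, Unc79 and Cadps are best known from neurons. Of 17 Schwann cell and neuronal markers 6, among them Snap25, Syt1 and Th, were under the filter, and limma called none of the other 11 (1 higher and 1 lower at an unadjusted p under 0.05, none with edgeR, DESeq2 or limma-voom). Without ND_WT 3 limma called 2 of the 11 higher, S100b and Uchl1. The 17 summed to 290 to 327 CPM in ND_WT and 293 to 318 CPM in ND_TKO. The call of Unc79 ended without ND_WT 1 (adjusted p = 0.072), ND_WT 2 (0.052), ND_TKO 2 (0.053) or ND_TKO 3 (0.053), and in a fit of the 6 ND libraries alone (0.087). That of Cadps ended without ND_WT 1 (adjusted p = 0.060), ND_WT 2 (0.052) or ND_TKO 3 (0.052), and in a fit of the 6 ND libraries alone (0.069). Fgf13 and Dpysl3 ended only in a fit of the 6 ND libraries alone (adjusted p = 0.056 and 0.054).

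A further 6 rises were of genes with varied functions. Mest, an imprinted gene whose level in fat is known to track the growth of the depot, stood at 66.2, 47.5 and 221 CPM in ND_WT and 617, 434 and 419.7 CPM in ND_TKO (log2 change 2.43 ± 0.45, adjusted p = 0.010). Thbs1, the matricellular glycoprotein thrombospondin 1, stood at 57.8, 76.2 and 223 CPM in ND_WT and 409.9, 553 and 447 CPM in ND_TKO (log2 change 2.21 ± 0.43, adjusted p = 0.013). In both genes ND_WT 3 was the highest ND_WT library by far and lay below the lowest ND_TKO library. The secreted phospholipase gene Pla2g2e followed the same order, with 3.72, 1.66 and 10.8 CPM in ND_WT and 24, 19 and 20.5 CPM in ND_TKO (log2 change 2.06 ± 0.45, adjusted p = 0.022). Rgs2, which shortens G protein signals, stood at 17.4, 28.5 and 14 CPM in ND_WT and 39.96, 109 and 101 CPM in ND_TKO (log2 change 1.94 ± 0.32, adjusted p = 0.0051), with ND_TKO 1 below the other ND_TKO libraries. Ubd, a ubiquitin-like modifier, stood at 4.15, 4.06 and 3.24 CPM in ND_WT and 22.4, 14.4 and 11.4 CPM in ND_TKO (log2 change 1.78 ± 0.26, adjusted p = 0.0026). Ddit4, a stress-induced inhibitor of the growth kinase mTORC1, was at 17.5, 19.4 and 28.7 CPM in ND_WT and 63.4, 93 and 64.1 CPM in ND_TKO (log2 change 1.71 ± 0.19, adjusted p = 4.3e-04). The calls of Ubd and Ddit4 held under all 18 other settings. The call of Mest ended without ND_WT 1 (adjusted p = 0.052), and in a fit of the 6 ND libraries alone (0.059). That of Thbs1 ended without ND_WT 1 (adjusted p = 0.056) or ND_WT 2 (0.0502), and in a fit of the 6 ND libraries alone (0.054). Pla2g2e kept its call only where ND_WT 3 was the library left out: it ended without ND_WT 1 (adjusted p = 0.080), ND_WT 2 (0.062), ND_TKO 1 (0.072), ND_TKO 2 (0.0504) or ND_TKO 3 (0.069), and in a fit of the 6 ND libraries alone (0.073). Rgs2 ended in the fit of the 6 ND libraries alone (adjusted p = 0.058) and in that fit without ND_WT 3 (0.053).

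**Figure D2:**
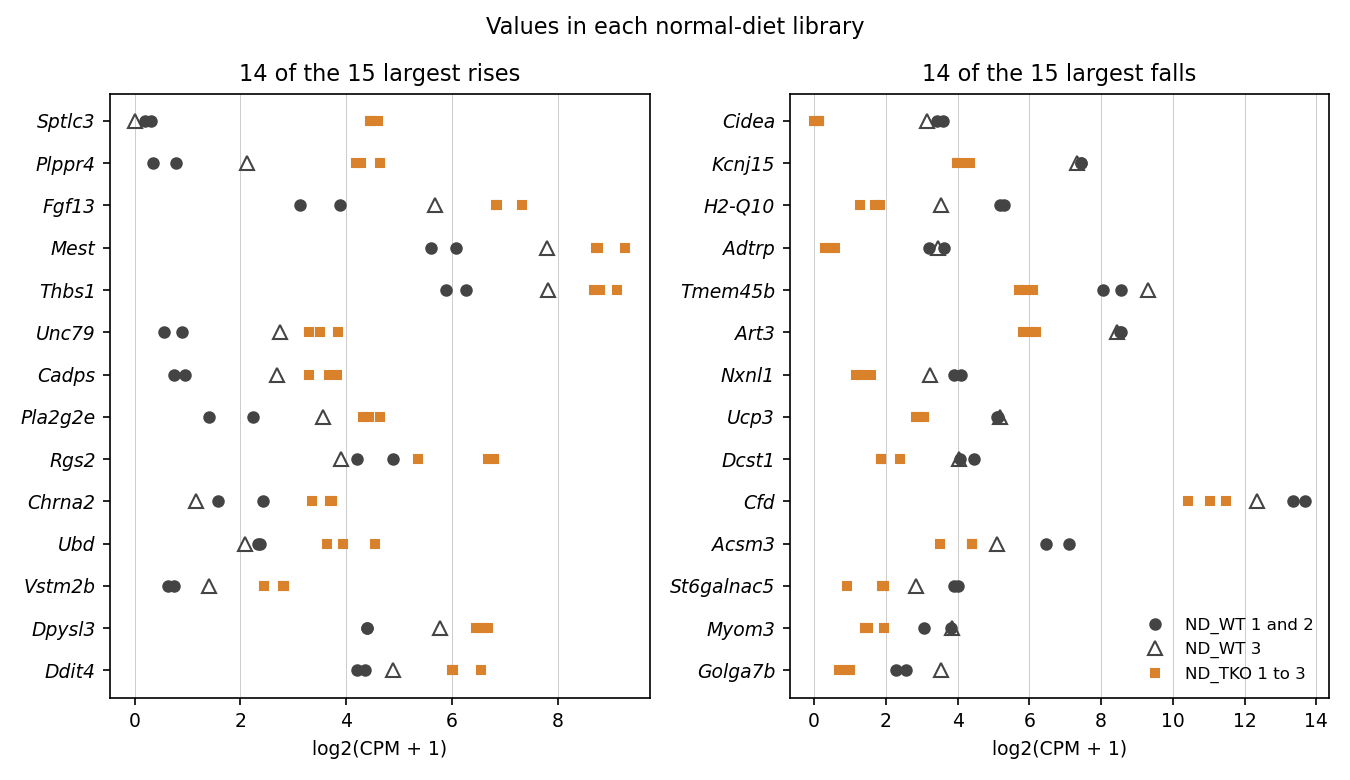
Level of 14 of the 15 largest rises (left) and 14 of the 15 largest falls (right) in each ND library, as log2(CPM + 1); circles are ND_WT replicates 1 and 2, triangles ND_WT replicate 3 and squares the 3 ND_TKO libraries. No ND_TKO value overlaps an ND_WT value, as the naming rule required, and the triangle lies on the ND_TKO side of both circles for Mest, Thbs1, Unc79, Cadps and Cfd but not for Sptlc3, Rgs2, Ubd or Tmem45b.

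Most of the other large falls kept their calls whichever library was left out. Adtrp, a hydrolase of the lipokines in which a fatty acid is esterified to a hydroxy fatty acid, stood at 8.25, 11.2 and 9.95 CPM in ND_WT and 0.231, 0.371 and 0.489 CPM in ND_TKO (log2 change -2.98 ± 0.14, adjusted p = 4.9e-07). Ucp3, a carrier of the inner mitochondrial membrane, stood at 33.4, 33.6 and 35.5 CPM in ND_WT and 7.29, 6.39 and 6.13 CPM in ND_TKO (log2 change -2.21 ± 0.13, adjusted p = 2.1e-06). Its neighbour on chromosome 7, Ucp2, went the other way, with 159, 184 and 199 CPM in ND_WT and 432, 349 and 331 CPM in ND_TKO (log2 change 1.03 ± 0.12, adjusted p = 5.8e-04). Every ND_TKO library thus lay below ND_WT for Ucp3 and above it for Ucp2. Art3, of the ADP-ribosyltransferase family, stood at 373, 369 and 349.7 CPM in ND_WT and 55.7, 72 and 65.3 CPM in ND_TKO (log2 change -2.49 ± 0.16, adjusted p = 6.8e-06). Tmem45b was at 378, 264 and 634 CPM in ND_WT and 56.7, 51.2 and 67.1 CPM in ND_TKO (log2 change -2.76 ± 0.24, adjusted p = 1.2e-04). The ND_TKO values of both were far below the lowest ND_WT value. Nxnl1, a thioredoxin-like gene, stood at 14.1, 16.2 and 8.40 CPM in ND_WT and 1.25, 1.99 and 1.47 CPM in ND_TKO (log2 change -2.40 ± 0.22, adjusted p = 1.5e-04). Dcst1, a transmembrane gene of the same family as the cell fusion protein DC-STAMP, stood at 20.8, 15.8 and 15.5 CPM in ND_WT and 2.68, 4.26 and 2.62 CPM in ND_TKO (log2 change -2.14 ± 0.17, adjusted p = 4.3e-05). Golga7b was at 4.91, 3.83 and 10.7 CPM in ND_WT and 1.02, 0.603 and 0.845 CPM in ND_TKO (log2 change -1.94 ± 0.28, adjusted p = 0.0024). In Tmem45b and Golga7b ND_WT 3 was the highest library and in Nxnl1 it was the lowest of ND_WT, with no overlap in any of them. Dcst1 overlaps Dcst2 on chromosome 3, so the reads of the pair may not be separable. The sialyltransferase gene St6galnac5 stood at 13.9, 15 and 6.21 CPM in ND_WT and 0.877, 2.87 and 2.71 CPM in ND_TKO (log2 change -2.0 ± 0.33, adjusted p = 0.0052).

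Myom3, a protein of the sarcomere, stood at 13, 7.38 and 13.4 CPM in ND_WT and 1.85, 2.87 and 1.69 CPM in ND_TKO (log2 change -1.94 ± 0.23, adjusted p = 8.5e-04). The muscle myosin light chain gene Myl1 was at 31.9, 27.9 and 33.9 CPM in ND_WT and 17.7, 14.8 and 14.8 CPM in ND_TKO (log2 change -0.94 ± 0.13, adjusted p = 0.0017). Skeletal muscle markers were read beside them. Of 15 markers 8 were under the filter, among them the defining genes Ckm, Myh1, Myh2 and Myh4, and 1 of the 7 tested, Myl1 itself, was lower. The list had a median change of -0.13 and sums of 145 to 171 CPM in ND_WT and 104 to 129 CPM in ND_TKO. The calls of Adtrp, Ucp3, Ucp2, Art3, Tmem45b, Nxnl1, Dcst1, Golga7b, St6galnac5, Myom3 and Myl1 held under all 18 other settings.

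Some genes below or outside the 15 in each direction were singled out, with their values known, because their calls also held under all 18 other settings. Gpr50, an orphan receptor of the melatonin receptor family (chromosome X, 71663667 to 71669257), had no reads in any ND_WT library and 71, 87 and 67 reads in ND_TKO, at least 24.0-fold higher against the limit of 3 reads per library. It was the only called gene with no read in any library of one group. Pex5l was at 0.477, 0.507 and 0.822 CPM in ND_WT and 4.15, 5.98 and 4.31 CPM in ND_TKO (log2 change 1.85 ± 0.23, adjusted p = 0.0010). The 3 libraries of each genotype were separated in both genes. Ctcfl, the germline relative of the insulator protein CTCF, stood at 19.4, 16.2 and 16.8 CPM in ND_WT and 4.20, 6.02 and 5.42 CPM in ND_TKO (log2 change -1.58 ± 0.15, adjusted p = 1.5e-04). Lrg1, a secreted glycoprotein, stood at 168, 204 and 178 CPM in ND_WT and 59.8, 42.9 and 46.9 CPM in ND_TKO (log2 change -1.87 ± 0.25, adjusted p = 0.0015). Deptor, an inhibitor of mTOR, was at 151, 106 and 169 CPM in ND_WT and 36.4, 54.2 and 38.1 CPM in ND_TKO (log2 change -1.70 ± 0.17, adjusted p = 2.4e-04). Depp1 stood at 16.4, 18.9 and 28.6 CPM in ND_WT and 47.1, 78 and 64.6 CPM in ND_TKO (log2 change 1.54 ± 0.21, adjusted p = 0.0017). Of the pair of mTOR inhibitors, Ddit4 was thus higher and Deptor lower in ND_TKO.

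Lipid genes were read by step, and the difference between steps was not tested. Among 19 tested genes of fatty acid synthesis and its regulators 4 were called, all lower (3 with TMM scaling; 7 without ND_WT 3), with a median change of -0.42 against -0.06 over all genes. The elongase gene Elovl6 stood at 71.4, 36 and 43.3 CPM in ND_WT and 15.4, 13.2 and 16.7 CPM in ND_TKO (log2 change -1.62 ± 0.19, adjusted p = 8.2e-04). Acacb, the acetyl-CoA carboxylase whose product holds back mitochondrial fatty acid entry, stood at 399.5, 488 and 184 CPM in ND_WT and 71.4, 115 and 104 CPM in ND_TKO (log2 change -1.79 ± 0.29, adjusted p = 0.0046). Mlxipl, the glucose-sensing transcription factor of this pathway, stood at 98.9, 85.8 and 66.1 CPM in ND_WT and 39.8, 42.2 and 36.8 CPM in ND_TKO (log2 change -1.04 ± 0.13, adjusted p = 0.0011). All 3 were lower in each ND_TKO library than in each ND_WT library. The enzymes next in the pathway had values in the same direction that did not pass. Fasn, the fatty acid synthase, was at 3259.7, 2080.5 and 1972 CPM in ND_WT and 1138, 1280.3 and 1367 CPM in ND_TKO (log2 change -0.91, adjusted p = 0.062). Acly, which makes cytosolic acetyl-CoA, was at 492, 254 and 296 CPM in ND_WT and 182, 208 and 212 CPM in ND_TKO (log2 change -0.73, adjusted p = 0.060). Both passed without ND_WT 3 (adjusted p = 0.035 and 0.040) and with DESeq2 (0.012 and 0.013). Scd1, the fatty acid desaturase, had a change of -0.38 (adjusted p = 0.43; 0.038 with DESeq2). Srebf1, the other main regulator, did not pass, with 333, 333 and 244 CPM in ND_WT and 295, 299.6 and 329 CPM in ND_TKO (adjusted p = 0.90). Tkt, a pentose phosphate enzyme that is outside the list, stood at 862, 702 and 554 CPM in ND_WT and 311, 305 and 347 CPM in ND_TKO (log2 change -1.11 ± 0.14, adjusted p = 0.0011). The alanine aminotransferase gene Gpt was at 138, 111 and 167 CPM in ND_WT and 59, 44.5 and 48.7 CPM in ND_TKO (log2 change -1.42 ± 0.19, adjusted p = 0.0015). Tkt and Gpt were named once their values were known. The Acacb call ended in a fit of the 6 ND libraries alone (adjusted p = 0.052).

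Among genes that esterify fatty acids to triglyceride most calls were higher. Of 17 tested genes of glyceroneogenesis and triglyceride assembly 4 were higher and 1 lower, with a median change of 0.16. Gpam, which attaches the first fatty acid to glycerol phosphate, stood at 489, 517 and 336 CPM in ND_WT and 679, 958 and 867 CPM in ND_TKO (log2 change 0.91 ± 0.19, adjusted p = 0.018). Lpin1, the phosphatidate phosphatase, stood at 729, 807 and 701 CPM in ND_WT and 999, 1102 and 1138 CPM in ND_TKO (log2 change 0.53 ± 0.09, adjusted p = 0.0044). Gpd1, which makes glycerol phosphate from a glycolytic intermediate, stood at 1119, 966 and 930.2 CPM in ND_WT and 1852, 1725 and 1883 CPM in ND_TKO (log2 change 0.86 ± 0.15, adjusted p = 0.0059). The glycerol channel gene Aqp7 was at 175, 186 and 167 CPM in ND_WT and 232, 218 and 216 CPM in ND_TKO (log2 change 0.33 ± 0.07, adjusted p = 0.017). Every ND_TKO value of these 4 genes lay above every ND_WT value. Pck1, an enzyme of glyceroneogenesis, was the lower gene, with 4426, 4912 and 3034 CPM in ND_WT and 1778, 1833 and 2095 CPM in ND_TKO (log2 change -1.09 ± 0.17, adjusted p = 0.0035). Gpd1 and Pck1 thus changed in opposite directions, and the calls of both held under all 18 other settings. The call of Gpam ended without ND_TKO 2 (adjusted p = 0.062) or ND_TKO 3 (0.071), and in a fit of the 6 ND libraries alone (0.061). That of Aqp7 ended without ND_WT 1 (adjusted p = 0.068) or ND_TKO 1 (0.065), and in a fit of the 6 ND libraries alone (0.084) or in that ND fit without ND_WT 3 (0.062), and Lpin1 ended only in the fit of the 6 ND libraries alone (adjusted p = 0.054).

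Of 19 tested genes of fatty acid uptake and activation 4 were higher and 1 lower, with a median change of 0.12. Acsl1, the main long-chain acyl-CoA synthetase of adipocytes, stood at 2526, 2525 and 1796 CPM in ND_WT and 4220.2, 4661 and 4766 CPM in ND_TKO (log2 change 1.01 ± 0.16, adjusted p = 0.0038), and its call held under all 18 other settings. Acsm3, a medium-chain acyl-CoA synthetase that overlaps the gene Eri2, fell, with 87.8, 136 and 33.5 CPM in ND_WT and 10.3, 20.1 and 20.3 CPM in ND_TKO (log2 change -2.12 ± 0.43, adjusted p = 0.015). Lpl, the lipase of the vessel wall, was at 15987, 16093 and 13830.0 CPM in ND_WT and 21238, 21045 and 20932 CPM in ND_TKO (log2 change 0.46, adjusted p = 0.18). The transporter gene Cd36 was at 4884, 5107 and 4885 CPM in ND_WT and 6531, 6677 and 6444 CPM in ND_TKO (log2 change 0.40, adjusted p = 0.077). Both had higher values in each ND_TKO library and did not pass with limma on CPM. Both passed with edgeR (adjusted p = 0.024 and 0.0091), limma-voom (0.027 and 0.0087) and DESeq2 (9.9e-05 and 2.0e-10). Fabp4, the fatty acid binding protein of adipocytes, overlapped between the groups (log2 change 0.27, adjusted p = 0.43). The call of Acsm3 ended without ND_WT 1 (adjusted p = 0.068) or ND_TKO 1 (0.059), and in a fit of the 6 ND libraries alone (0.073).

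Adrenergic and lipolysis genes were called in both directions. Of 24 tested members 3 were higher and 2 lower (3 and 3 without ND_WT 3), with a median change of 0.02 (-0.06 without ND_WT 3). Adcy5, an adenylyl cyclase that makes cyclic AMP, stood at 160.1, 188 and 174 CPM in ND_WT and 382, 314 and 343 CPM in ND_TKO (log2 change 0.99 ± 0.09, adjusted p = 1.5e-04). Prkar2b, the regulatory subunit of protein kinase A that prevails in fat, was at 850.1, 881 and 927 CPM in ND_WT and 1187, 1260.0 and 1213 CPM in ND_TKO (log2 change 0.46 ± 0.08, adjusted p = 0.0059). The genotypes did not overlap in either gene. Adrb1, the β1 receptor gene, stood at 5.01, 4.52 and 4.52 CPM in ND_WT and 2.58, 2.97 and 2.53 CPM in ND_TKO (log2 change -0.62 ± 0.16, adjusted p = 0.045). The β3 receptor gene Adrb3, at 791, 766 and 525 CPM in ND_WT and 529, 576 and 644 CPM in ND_TKO, did not pass (log2 change -0.23, adjusted p = 0.60), and neither did the lipase genes Pnpla2 (adjusted p = 0.92) and Lipe (adjusted p = 0.72) or the droplet coat gene Plin1 (adjusted p = 0.99). The call of Adrb1 ended without ND_WT 1 (adjusted p = 0.14), ND_WT 2 (0.097), ND_TKO 1 (0.12), ND_TKO 2 (0.066) or ND_TKO 3 (0.13), and in a fit of the 6 ND libraries alone (0.059), with edgeR (0.081), with no filter on low values (0.069), with a replicate block (0.054) or with a pseudocount of 0.5 (0.058). Prkar2b ended only in the fit of the 6 ND libraries alone (adjusted p = 0.059), and Adcy5 held under all 18 other settings. The remaining called members were G0s2, higher, and Pde4d, lower, with the widest change of the list (-1.13). The Pde4d call ended without ND_WT 1 (adjusted p = 0.057) or ND_TKO 3 (0.056), and in a fit of the 6 ND libraries alone (0.061).

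Among 22 tested thermogenic genes 2 were called, beside 5.7% of all tested genes. They were Cidea and Ucp3, both lower (1 higher and 2 lower without ND_WT 3), and the median change was -0.10. Ppargc1a, the coactivator of mitochondrial biogenesis, stood at 11, 9.54 and 4.47 CPM in ND_WT and 7.57, 8.16 and 5.69 CPM in ND_TKO and did not pass (adjusted p = 0.84), and neither did Prdm16 (adjusted p = 0.81). Dio2, the deiodinase that activates thyroid hormone, stood at 0.430, 0.323 and 0.685 CPM in ND_WT and 2.95, 1.44 and 1.87 CPM in ND_TKO without overlap between the groups (log2 change 1.04, adjusted p = 0.14), and DESeq2 called it (adjusted p = 0.0033). Of 26 nuclear respiratory chain genes limma called none, with none at an unadjusted p under 0.05 and none called with edgeR, DESeq2 or limma-voom. Their changes lay between -0.20 and 0.14 and their median was 0.03 (0.09 with TMM scaling, -0.04 without ND_WT 3). Of 23 genes of fatty acid oxidation 1 was called, beside 5.7% of all tested genes, and it was higher (2 with TMM scaling, and 2 higher and 1 lower without ND_WT 3). It was Acadl, the long-chain acyl-CoA dehydrogenase, with 331, 325 and 286 CPM in ND_WT and 471, 460.1 and 462 CPM in ND_TKO (log2 change 0.57 ± 0.09, adjusted p = 0.0035). Of 19 genes of branched-chain amino acid breakdown 1 was higher and 1 lower. Without ND_WT 3, 1 was higher and 7 were lower, beside 6.27% of all tested genes called lower in that fit. The higher gene was Bckdhb, a subunit of the complex that commits these amino acids to breakdown, with 85.3, 89 and 73.3 CPM in ND_WT and 139, 140.1 and 153 CPM in ND_TKO (log2 change 0.80 ± 0.08, adjusted p = 2.4e-04). Limma called none of 20 glycolysis genes (3 higher and 3 lower at an unadjusted p under 0.05; 1 called with DESeq2, none with edgeR or limma-voom; 2 higher without ND_WT 3). The calls of Acadl and Bckdhb held under all 18 other settings.

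**Figure D3:**
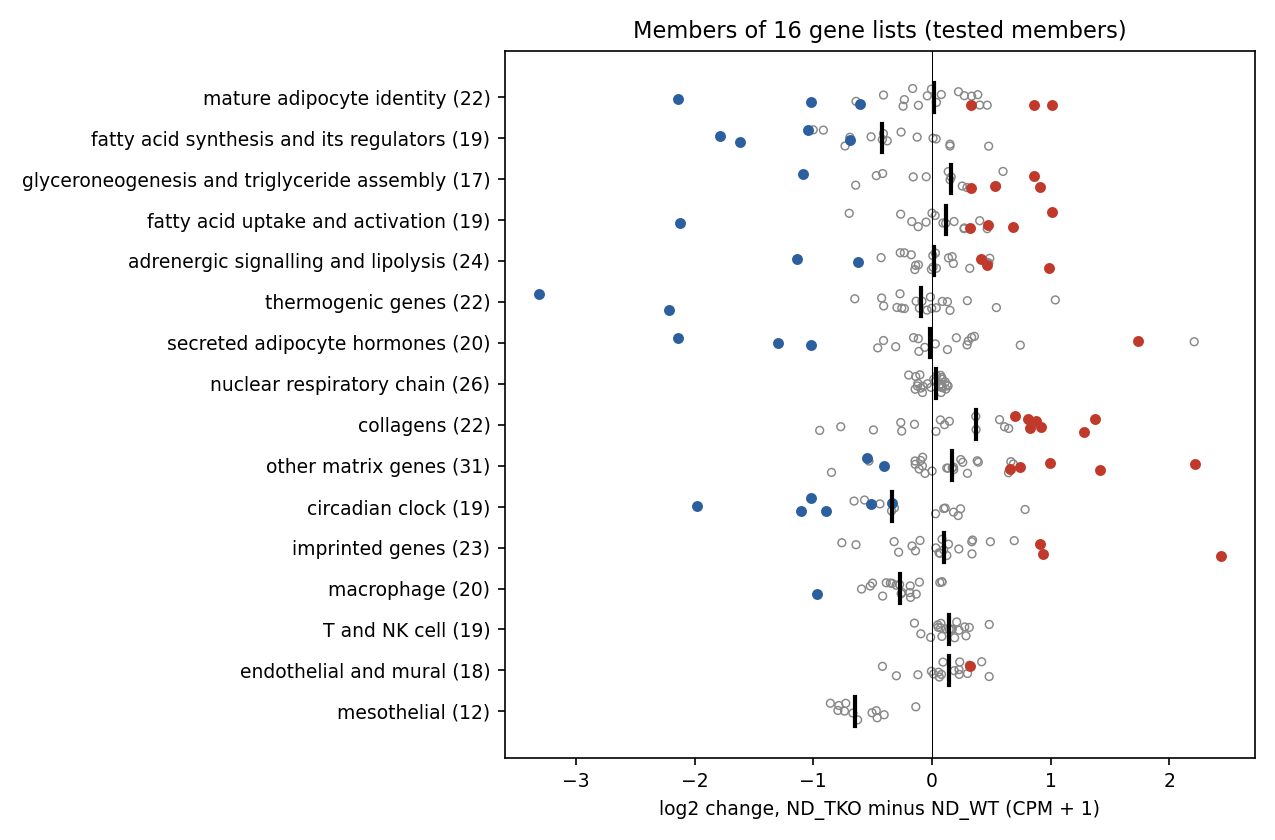
Log2 change, ND_TKO minus ND_WT, of each tested member of 16 gene lists (number of members in brackets). Filled points are called genes (red higher, blue lower), open points did not pass, and the black bar is the median of the list. Fatty acid synthesis (median -0.42) and clock genes (-0.34) lie to the left and collagens (0.37) to the right, while the 26 respiratory chain genes lie within -0.20 to 0.14 with no filled point; the mesothelial list (-0.65) has no called member.

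Of 22 tested mature adipocyte genes 3 were higher and 3 lower, with a median change of 0.02, so the identity genes as a list did not lean to one side. Secreted hormones went both ways. Retn, the resistin gene, stood at 1405, 1502 and 1317 CPM in ND_WT and 618, 648 and 829.9 CPM in ND_TKO (log2 change -1.02 ± 0.15, adjusted p = 0.0026). Cfd, the adipsin gene and one of the most abundant transcripts of fat, stood at 10483, 13059 and 5225 CPM in ND_WT and 1380.1, 2083 and 2889 CPM in ND_TKO (log2 change -2.14 ± 0.47, adjusted p = 0.021). Nrg4, a neuregulin secreted by fat, stood at 136, 128 and 130.2 CPM in ND_WT and 38.4, 60.05 and 64.5 CPM in ND_TKO (log2 change -1.29 ± 0.16, adjusted p = 0.0012). These falls did not overlap with ND_WT in any library. Adipoq was at 5025, 5106 and 4437 CPM in ND_WT and 6242, 5663 and 6448 CPM in ND_TKO and did not pass (log2 change 0.33, adjusted p = 0.24), although DESeq2 called it (adjusted p = 0.032). Lep, the leptin gene, rested on 1 library, with 689, 495 and 2588 CPM in ND_WT and 984, 611 and 629 CPM in ND_TKO: its change was -0.41 (adjusted p = 0.66) with ND_WT 3 and 0.31 (adjusted p = 0.44) without it. Over 20 tested genes of secreted hormones 1 was higher and 3 lower, and without ND_WT 3 there were 6 higher and 3 lower. The call of Cfd ended without ND_WT 1 (adjusted p = 0.081), ND_WT 2 (0.078), ND_TKO 1 (0.080) or ND_TKO 2 (0.054), while the calls of Retn and Nrg4 held under all 18 other settings.

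Insulin signalling genes and adipogenic factors were examined together with some genes picked for their values. Grb14, an adaptor that restrains the insulin receptor, stood at 23.6, 19.3 and 36.2 CPM in ND_WT and 10.4, 8.25 and 10.05 CPM in ND_TKO (log2 change -1.33 ± 0.19, adjusted p = 0.0024). Slc2a4, which encodes the GLUT4 transporter that insulin recruits, was at 280.4, 219.6 and 215 CPM in ND_WT and 155, 146 and 166 CPM in ND_TKO (log2 change -0.60 ± 0.14, adjusted p = 0.026). In both genes every ND_TKO value lay below every ND_WT value. Of 19 tested insulin signalling genes 1 was higher and 3 lower (5 lower without ND_WT 3), with a median change of -0.06. Cebpd, an early adipogenic factor induced by glucocorticoid, was the 1 called gene of 19 adipogenic transcription factors (1 higher and 2 lower without ND_WT 3), with 7.20, 6.32 and 18.7 CPM in ND_WT and 22.7, 35.2 and 31.1 CPM in ND_TKO (log2 change 1.51 ± 0.34, adjusted p = 0.024). Pparg (log2 change -0.16, adjusted p = 0.40) and Cebpa (log2 change -0.24, adjusted p = 0.22), the factors that hold adipocyte identity, did not pass. Hsd11b1, which regenerates active glucocorticoid inside the cell, stood at 305, 405 and 214 CPM in ND_WT and 72.4, 83.8 and 77.6 CPM in ND_TKO (log2 change -1.92 ± 0.22, adjusted p = 6.6e-04). The secreted glutathione peroxidase gene Gpx3 was at 860.2, 1043 and 627 CPM in ND_WT and 213, 308 and 319 CPM in ND_TKO (log2 change -1.58 ± 0.23, adjusted p = 0.0024). Ephx2, the soluble epoxide hydrolase gene next to Chrna2 on chromosome 14, stood at 491, 575 and 293 CPM in ND_WT and 1097, 1036 and 1063 CPM in ND_TKO (log2 change 1.29 ± 0.20, adjusted p = 0.0034). Hsd11b1, Gpx3 and Ephx2 were named once their values were known, and their calls, like that of Grb14, held under all 18 other settings. Of 21 cytochrome P450 and glutathione transferase genes 3 were higher and 2 lower (4 and 2 with TMM scaling); Gsta4, which clears lipid peroxidation products, stood at 41.4, 31.2 and 32.1 CPM in ND_WT and 65.5, 77 and 77.7 CPM in ND_TKO (log2 change 1.06 ± 0.16, adjusted p = 0.0036). Cyp4b1 was at 59.98, 58 and 65.6 CPM in ND_WT and 94.8, 105 and 79.5 CPM in ND_TKO (log2 change 0.59 ± 0.10, adjusted p = 0.0047). The call of Cebpd ended without ND_WT 1 (adjusted p = 0.10), ND_WT 2 (0.087), ND_TKO 2 (0.074) or ND_TKO 3 (0.084), and in a fit of the 6 ND libraries alone (0.085). That of Slc2a4 ended without ND_WT 1 (adjusted p = 0.10), ND_TKO 1 (0.073), ND_TKO 2 (0.075) or ND_TKO 3 (0.059), and in a fit of the 6 ND libraries alone (0.052).

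Collagens were the list with most called rises. Of 22 tested collagen genes 7 were called, all higher, with a median change of 0.37 (0.43 with TMM scaling), and without ND_WT 3 there were 11 higher and 2 lower with a median of 0.58. Col6a1 stood at 256, 315 and 522 CPM in ND_WT and 1265, 749 and 783 CPM in ND_TKO (log2 change 1.38 ± 0.25, adjusted p = 0.0095). Col6a2 was at 232, 280.4 and 490.5 CPM in ND_WT and 1164, 607 and 651 CPM in ND_TKO (log2 change 1.28 ± 0.28, adjusted p = 0.023). Col6a3 was at 88.8, 116 and 106 CPM in ND_WT and 252, 173 and 157 CPM in ND_TKO (log2 change 0.88 ± 0.18, adjusted p = 0.018). These encode the 3 main chains of collagen VI, the beaded collagen that surrounds adipocytes. ND_TKO 1 was the highest library for each chain, and no ND_TKO value fell within the ND_WT range. The fibrillar collagen gene Col1a1 had values in the other direction that did not pass, with 207, 240.5 and 227 CPM in ND_WT and 206, 137 and 143 CPM in ND_TKO (log2 change -0.49, adjusted p = 0.14). Of 31 other matrix genes 5 were higher and 2 lower (1 lower with TMM scaling), with a median of 0.17 and, without ND_WT 3, 0.41. Lum, the collagen-binding proteoglycan lumican, stood at 67.3, 58.9 and 75.4 CPM in ND_WT and 189.5, 192 and 162 CPM in ND_TKO (log2 change 1.42 ± 0.11, adjusted p = 4.3e-05) and held its call under all 18 other settings. Sparc, a collagen-binding matricellular protein, stood at 2626, 2618 and 4715 CPM in ND_WT and 8253, 5263 and 5844 CPM in ND_TKO (log2 change 0.99 ± 0.23, adjusted p = 0.030). ND_WT 3 had the highest ND_WT value of Col6a1, Col6a2 and Sparc. The call of Col6a2 ended without ND_WT 1 (adjusted p = 0.096), ND_WT 2 (0.078) or ND_TKO 1 (0.073), and in a fit of the 6 ND libraries alone (0.10). That of Col6a3 ended without ND_WT 1 (adjusted p = 0.080) or ND_TKO 1 (0.054), and in a fit of the 6 ND libraries alone (0.059). That of Sparc ended without ND_WT 1 (adjusted p = 0.12), ND_WT 2 (0.10), ND_TKO 1 (0.10) or ND_TKO 3 (0.075), and in a fit of the 6 ND libraries alone (0.14) or with no filter on low values (0.11). Col6a1 ended only in the fit of the 6 ND libraries alone (adjusted p = 0.060).

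Markers of the cells that make matrix were compared beside these. Of 20 progenitor and stromal markers 1 was higher and 1 lower (5 and 2 without ND_WT 3), beside 5.7% of all tested genes called. Their median was 0.02 and their summed level 14735 to 15728 CPM in ND_WT and 14895 to 17030 CPM in ND_TKO. The higher gene was Dpt, the matrix protein dermatopontin, with 308, 290.4 and 552 CPM in ND_WT and 815, 789 and 793 CPM in ND_TKO (log2 change 1.12 ± 0.19, adjusted p = 0.0058), a call that ended only in the fit of the 6 ND libraries alone (adjusted p = 0.056). Serpine2, a protease inhibitor bound to matrix and chosen after its values were seen, fell, with 74, 70.8 and 84 CPM in ND_WT and 23.8, 30.9 and 26 CPM in ND_TKO (log2 change -1.47 ± 0.10, adjusted p = 7.5e-06), and held under all 18 other settings. The part of stromal cell number in the matrix result was not tested.

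Every called clock gene was lower. Of 19 tested circadian genes 6 were called, all lower (5 with TMM scaling, 8 without ND_WT 3), with a median change of -0.34. Values went both ways, since 7 of the 19 were higher in ND_TKO, with changes up to 0.78. At an unadjusted p under 0.05, 2 were higher and 10 lower. The uncalled members of highest level were Nr1d1 and Nr1d2. Bhlhe40, a repressor within the clock, stood at 69.3, 53.3 and 56 CPM in ND_WT and 25.9, 30.1 and 30.1 CPM in ND_TKO (log2 change -1.02 ± 0.14, adjusted p = 0.0015). Its relative Bhlhe41 was at 61.5, 53.7 and 44 CPM in ND_WT and 25, 21.4 and 25.6 CPM in ND_TKO (log2 change -1.10 ± 0.13, adjusted p = 8.5e-04). Every ND_TKO value of both lay below every ND_WT value. Tef, an output factor of the clock, stood at 304, 290.1 and 283 CPM in ND_WT and 179, 218 and 217 CPM in ND_TKO (log2 change -0.52 ± 0.12, adjusted p = 0.025). The circadian repressor Ciart was at 11.7, 9.03 and 10.6 CPM in ND_WT and 3.65, 5.84 and 6.31 CPM in ND_TKO (log2 change -0.89 ± 0.21, adjusted p = 0.032). Cry2, of the core loop, was at 105, 104 and 93 CPM in ND_WT and 84.1, 76.2 and 78.3 CPM in ND_TKO (log2 change -0.33 ± 0.08, adjusted p = 0.031). In these genes too no ND_TKO value reached the ND_WT range. The hour of collection is not in the labels, so its part was not tested. The calls of Bhlhe40 and Bhlhe41 held under all 18 other settings. The call of Tef ended without ND_WT 1 (adjusted p = 0.096), ND_WT 2 (0.066), ND_TKO 1 (0.093) or ND_TKO 3 (0.054). That of Ciart ended without ND_WT 1 (adjusted p = 0.12), ND_WT 2 (0.052), ND_TKO 1 (0.11) or ND_TKO 2 (0.052), and in a fit of the 6 ND libraries alone (0.068), with no filter on low values (0.059) or in that ND fit without ND_WT 3 (0.063). That of Cry2 ended without ND_WT 1 (adjusted p = 0.12), ND_WT 2 (0.098), ND_TKO 2 (0.081) or ND_TKO 3 (0.095), and in a fit of the 6 ND libraries alone (0.10), with edgeR (0.068), with limma-voom (0.065), with TMM scaling (0.058) or with a replicate block (0.059).

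**Figure D4:**
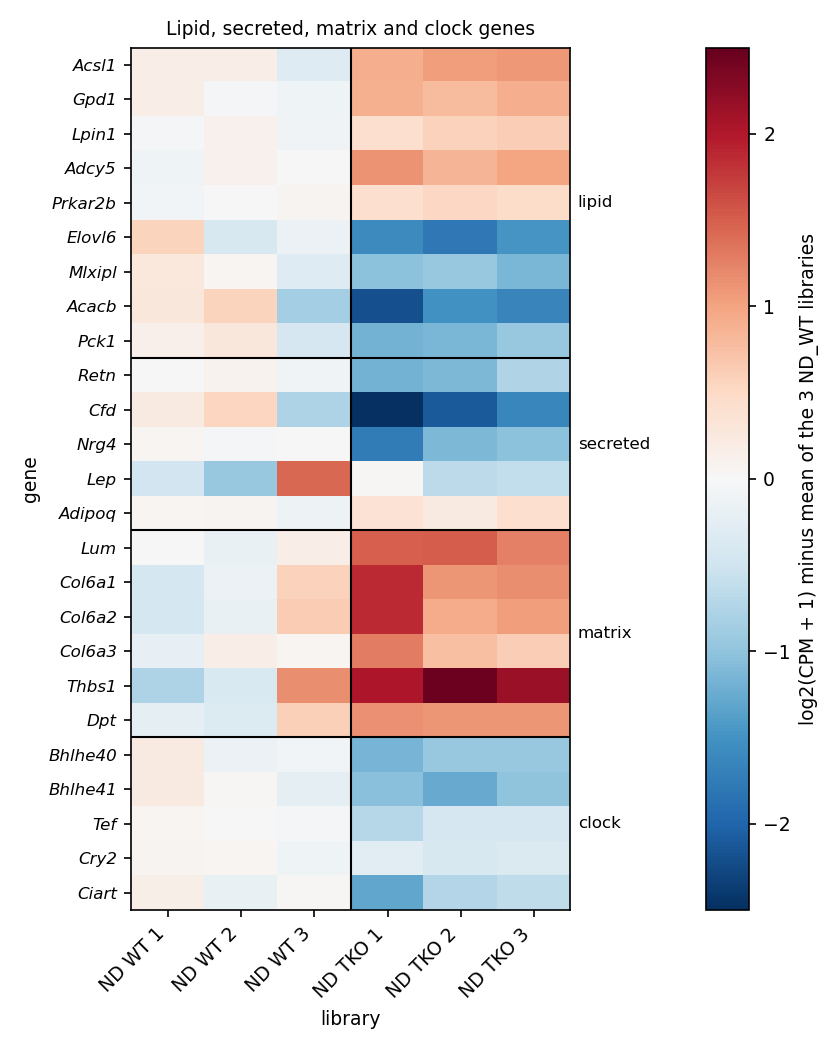
Lipid, secreted, matrix and clock genes in each ND library. Colour is log2(CPM + 1) minus the mean of the 3 ND_WT libraries (red higher, blue lower, limits at -2.5 and 2.5), with libraries on the x axis. ND_WT replicate 3 has the colour of the ND_TKO libraries, in a paler shade, for Thbs1, Col6a1 and Cfd. It is close to the ND_WT mean, and so nearly white, for Lum, Nrg4 and Retn, and it stands alone for Lep.

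The TET genes and the DNA methylation machinery were examined next. Counts over a whole gene do not check the genotype labels, because undeleted exons and other cell types of the pad also give reads. Tet1 stood at 1.48, 0.415 and 0.822 CPM in ND_WT and 2.77, 2.22 and 2.98 CPM in ND_TKO (log2 change 0.97 ± 0.21, adjusted p = 0.019), and Tet2 (adjusted p = 0.91) and Tet3 (log2 change 0.22, adjusted p = 0.17) did not pass; DESeq2 called Tet3 higher (adjusted p = 0.044). Of 21 tested genes of the machinery 2 were higher and 1 lower (none lower with TMM scaling), with a median of -0.03. The second higher gene was Gadd45g, a stress-induced gene linked to DNA demethylation, with 7.39, 4.19 and 8.44 CPM in ND_WT and 12.9, 22.9 and 19.2 CPM in ND_TKO (log2 change 1.34 ± 0.23, adjusted p = 0.0053), a call that ended only in the fit of the 6 ND libraries alone (adjusted p = 0.056). Of 19 tested histone deacetylase and corepressor genes 2 were called, both lower (1 with TMM scaling, 2 without ND_WT 3). None of the 19 had a positive change, and the median was -0.14 (-0.09 with TMM scaling). In 7 of them every ND_TKO value lay below every ND_WT value, beside 15.8% of all tested genes. Both calls ended in a fit of the 6 ND libraries alone (adjusted p = 0.071 and 0.11). Hdac1, the histone deacetylase gene, did not pass (adjusted p = 0.71). Genes around the TET loci were called about as often as elsewhere: within 5 Mb of Tet1, Tet2 and Tet3 the shares of called genes were 5.97% of 67, 5.88% of 51 and 3.49% of 86, beside 5.7% over all genes. The call of Tet1 ended without ND_WT 2 (adjusted p = 0.064), ND_TKO 1 (0.062) or ND_TKO 3 (0.076), and in a fit of the 6 ND libraries alone (0.072) or in that ND fit without ND_WT 3 (0.067).

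Imprinted genes, whose parental alleles differ in methylation, gave 3 calls of 23 tested, all higher, beside 2.16% of all tested genes called higher, with a median of 0.10. Besides Mest they were Peg3, a zinc finger gene of the paternal allele, with 32, 36.3 and 27.7 CPM in ND_WT and 70.2, 68.2 and 46.7 CPM in ND_TKO (log2 change 0.91 ± 0.17, adjusted p = 0.012), and Ndn, the necdin gene. Ndn was at 19.9, 17.1 and 41.6 CPM in ND_WT and 53.7, 40.1 and 48.5 CPM in ND_TKO (log2 change 0.93 ± 0.25, adjusted p = 0.049), with ND_WT 3 inside the ND_TKO range. The Peg3 call held under all 18 other settings. Copg2, which overlaps Mest, stood at 100.1, 90.8 and 174 CPM in ND_WT and 354, 281 and 273 CPM in ND_TKO (log2 change 1.36 ± 0.26, adjusted p = 0.012), so reads of the pair may not be separable, and its call ended without ND_WT 1 (adjusted p = 0.058). Of 22 germline genes with CpG-rich promoters, which DNA methylation is known to silence, 15 were under the filter and limma called none of the other 7 (2 lower at an unadjusted p under 0.05, none with edgeR, DESeq2 or limma-voom). The γ-protocadherin genes are a case of shared reads: 22 were tested and all 22 were called lower, by -0.53 to -0.42. However, 20 of them fell in 1 cluster and so count as 1 measurement. A gene joined a cluster if its values were within 5% of those of at least 1 member in all libraries. With such clusters taken once, the 552 lower calls became 530 and the 337 higher calls 336. The call of Ndn ended without ND_WT 1 (adjusted p = 0.17), ND_WT 2 (0.16), ND_TKO 1 (0.15), ND_TKO 2 (0.063) or ND_TKO 3 (0.13), and in a fit of the 6 ND libraries alone (0.17), with edgeR (0.066) or with no filter on low values (0.079).

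Immune genes were read next. Of 20 macrophage genes 1 was called, a share near the 5.7% of all genes, and it was lower in ND_TKO (3 without ND_WT 3). At an unadjusted p under 0.05, 7 of the 20 were lower and none higher. Only 3 of the 20 had a higher value in ND_TKO, and the median was -0.27. Summed levels were 1109 to 1654 CPM in ND_WT and 933 to 1250.3 CPM in ND_TKO. The lower gene was Cd14, the endotoxin co-receptor, with 24.3, 26.8 and 17.4 CPM in ND_WT and 9.83, 12.3 and 11 CPM in ND_TKO (log2 change -0.97 ± 0.20, adjusted p = 0.017). Adgre1, the F4/80 marker, was at 39.7, 38.8 and 40.6 CPM in ND_WT and 41.5, 30.9 and 21.3 CPM in ND_TKO and did not pass (log2 change -0.39, adjusted p = 0.23). Neither did Itgax (adjusted p = 0.77), the chemokine gene Ccl2 (adjusted p = 0.67), Tnf (adjusted p = 0.83) or the T cell gene Cd3e (adjusted p = 0.91). Limma called none of 19 T and NK cell genes, 10 B and plasma cell genes or 14 dendritic cell and MHC class II genes. None of those had an unadjusted p under 0.05 or a call with edgeR, DESeq2 or limma-voom. Limma also called none of 20 interferon response genes (3 lower unadjusted, none with the other tools), 21 cytokine and chemokine genes (1 higher and 1 lower unadjusted, 1 called with DESeq2, 1 higher without ND_WT 3), 19 cell cycle genes (2 higher and 1 lower unadjusted, 1 called with DESeq2, 1 lower without ND_WT 3) or 19 immediate early genes (none unadjusted, none with the other tools). Of the 20 interferon genes only 1 had a higher value in ND_TKO, and the median was -0.29. In 7 of them every ND_TKO value lay below every ND_WT value, beside 15.8% of all tested genes. Of 13 tested mast cell and granulocyte genes 1 was called, lower (3 lower without ND_WT 3). Unadjusted, 7 of the 13 were lower and none higher, with a median of -0.43. Complement and acute-phase genes gave 1 higher and 3 lower of 19. Serpina3c, a serpin secreted by fat, stood at 270.2, 269.6 and 324 CPM in ND_WT and 440.5, 507 and 532 CPM in ND_TKO (log2 change 0.78 ± 0.12, adjusted p = 0.0030). The complement gene C4b was at 774, 797 and 1279 CPM in ND_WT and 474, 499 and 455 CPM in ND_TKO (log2 change -0.96 ± 0.16, adjusted p = 0.0051). Serpina3c held under all 18 other settings, and C4b ended only in the fit of the 6 ND libraries alone (adjusted p = 0.054). The call of Cd14 ended without ND_WT 1 (adjusted p = 0.072), ND_WT 2 (0.064), ND_TKO 1 (0.063) or ND_TKO 3 (0.058).

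Among other cell types, 1 of 18 endothelial and mural genes was called, a share near the 5.7% of all genes, and it was higher (3 with TMM scaling, and 3 higher and 1 lower without ND_WT 3). It was Eng, a receptor of vessel endothelium, with 124, 140.2 and 114 CPM in ND_WT and 161, 165 and 146 CPM in ND_TKO (log2 change 0.32 ± 0.08, adjusted p = 0.039). Pecam1, the endothelial adhesion gene, did not pass (log2 change 0.30, adjusted p = 0.081) but passed with TMM scaling (adjusted p = 0.027). The 12 tested mesothelial genes all had lower values in ND_TKO, with a median of -0.65 (-0.59 with TMM scaling) and sums of 397 to 550 CPM in ND_WT and 232 to 377 CPM in ND_TKO. Limma called none of them (2 lower at an unadjusted p under 0.05, none with edgeR, DESeq2 or limma-voom), and the groups did not overlap for 7 of the 12, beside 23.8% of all tested genes (7.96% with higher and 15.8% with lower ND_TKO values). The 7 tested red blood cell genes had values in the other direction, with a median of 0.53 (0.59 with TMM scaling), and limma called none (1 higher unadjusted, none with the other tools). The call of Eng ended without ND_WT 1 (adjusted p = 0.12), ND_WT 3 (0.056), ND_TKO 1 (0.12) or ND_TKO 2 (0.098), and in a fit of the 6 ND libraries alone (0.15) or in that ND fit without ND_WT 3 (0.14).

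The same genes were then read in the HFD libraries. Both contrasts came from the same fit and share its estimate of the spread of each gene, so the ND and HFD calls are not independent. On HFD 7288 genes were called (46.7%), 15.2% of all tested genes higher and 31.6% lower in HFD_TKO. Of the 314 genes higher on ND with and without ND_WT 3, 173 (55.1%) were higher and 36 (11.5%) lower on HFD. Of the 497 lower genes, 247 (49.7%) were lower and 55 (11.1%) higher. These shares stand beside the 15.2% and 31.6% above, and no test of the overlap was made. Of the 811 genes 415 had a TKO effect that differed between diets by the interaction test (28.7% of all genes did). The 811 were chosen on the ND change, which is part of the interaction, so a larger share among them is favoured by the choice.

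Plppr4, Adtrp, Ucp3 and Golga7b had HFD changes of 3.26, -2.86, -2.06 and -1.86, beside ND changes of 3.28, -2.98, -2.21 and -1.94, and the interaction did not pass for any of them (adjusted p = 0.99, 0.68, 0.57 and 0.91). Sptlc3 rose on both diets, by less on HFD (1.25; interaction adjusted p = 2.2e-06), and Cidea fell on both, also by less on HFD (-2.11; 0.0039). Ubd and Rgs2 changed in opposite directions, falling on HFD by 2.20 and 1.70 (interaction adjusted p = 2.1e-05 and 1.4e-04), as did Ddit4 (-0.50; 1e-04). Gpr50, with no read in ND_WT, was at 21.0, 23.8 and 25.8 CPM in HFD_WT and at 5.02, 4.92 and 3.98 CPM in HFD_TKO, so the HFD_TKO level lay near the ND_TKO level. Among the metabolic genes Mlxipl, Pck1, Retn and Slc2a4 fell on ND and rose on HFD, by 1.16, 1.13, 1.59 and 2.0 (interaction adjusted p = 1.5e-05, 5.3e-05, 1.3e-05 and 7.8e-06). Hsd11b1 did the same (0.76; 8.8e-05), while Lum and Peg3 rose on ND and fell on HFD (-1.15 and -1.28; 2.6e-06 and 7.2e-05). Serpine2, Deptor and Ephx2 had HFD changes of -1.46, -2.25 and 1.25 beside -1.47, -1.70 and 1.29 on ND, and the interaction did not pass (adjusted p = 0.96, 0.11 and 0.94).

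**Figure D5:**
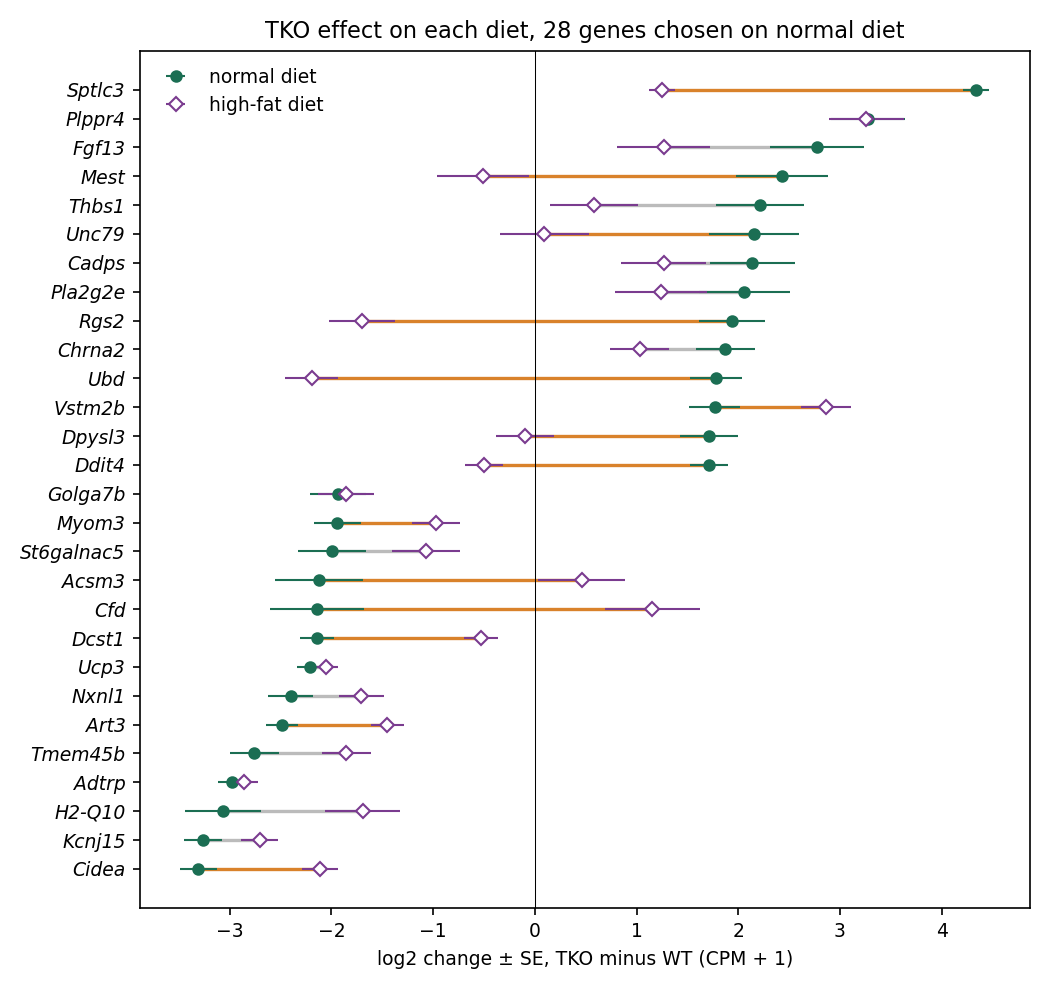
TKO effect on each diet for 28 of the 30 genes with the largest changes on ND. Points are log2 changes, TKO minus WT, on ND (green circles) and HFD (purple diamonds), bars are ± 1 SE, and the joining line is orange where the interaction passed at an adjusted p of 0.05. Plppr4, Adtrp, Ucp3 and Golga7b sit at nearly the same place on both diets, while Ubd, Rgs2, Ddit4, Mest and Cfd have diamonds on the other side of 0.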

How the data were processed

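Gene expression was measured by RNA sequencing in 12 libraries of mouse eWAT, and the table the authors deposited gives CPM per gene and library, per the file headers. Per the submitters' processing notes, the tools were STAR 2.7.3a, featureCounts 2.0.0 and DESeq2 and the build was mm10. Strand use, the handling of multi-mapped reads and the annotation release are not given in the sources used here. The deposited CPM values were whole reads scaled to the library total after an offset of 0.01 read (100% of values within 0.05 read). The 3 genes without a symbol (0.0313% to 0.0679% of reads) were left out, and 89 tested genes shared all values with a second gene. TMM factors lay between 0.914 and 1.12.

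The main test was limma 3.58.1 in R 4.3.3 on log2(CPM + 1), with the variance trended on level. One fit held a mean for each of the 4 groups over all 12 libraries (8 residual degrees of freedom), so that the groups share one estimate of the spread. Benjamini-Hochberg adjustment ran over 15597 genes, with calls at 0.05. Adjusted p-values come from this limma fit where no other tool is given, and a change ± its SE is on the log2(CPM + 1) scale. P-values measure the spread between the labelled biological replicates. The HFD contrast and the interaction (TKO effect on HFD minus that on ND) came from the same fit.

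The 18 other settings were TMM-scaled CPM, pseudocounts of 0.5 and 5, no filter, a filter at 1 CPM, the 6 ND libraries alone, each ND library left out, a replicate block, and edgeR 4.0.16, limma-voom and DESeq2 1.42.0 on the recovered reads. The last 2 of the 18, TMM scaling and the ND libraries alone, each without ND_WT 3, were chosen after seeing the data. The procedure was tested on simulated data. The comparison, the 43 gene lists and a panel of 40 genes were chosen with earlier results of these data known. Named genes were the 15 largest rises and falls called with and without ND_WT 3, without overlap between groups and with at least 5 CPM in the higher group (1 unnamed gene model skipped), the panel, and called list members; 1 gene of the 15 in each direction is not reported here. Genes outside that rule are marked as chosen after their values were seen. Coordinates are from RefSeq GRCm38.p6, to which 25180 of 25232 genes matched.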

Additional observations from a re-analysis of the deposited data

Results flagged for a closer look

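For 14 of the 28 genes shown among the largest ND changes the TKO effect differed between diets by the interaction test (HFD effect minus ND effect, limma, 3 libraries per group). The difference in log2 change was -3.09 for Sptlc3 (adjusted p = 2.2e-06), -3.98 for Ubd (2.1e-05), -2.22 for Ddit4 (1.0e-04), -3.64 for Rgs2 (1.4e-04), -2.94 for Mest (0.0050), -1.81 for Dpysl3 (0.0054) and -2.06 for Unc79 (0.027). These 7 genes rose on ND and had a smaller or opposite change on HFD. The 1 rise on ND that was larger on HFD was Vstm2b, with a difference of 1.10 (0.036). Among genes that fell on ND the difference was 1.61 for Dcst1 (4.5e-04), 3.30 for Cfd (0.0030), 1.20 for Cidea (0.0039), 1.04 for Art3 (0.0051), 2.58 for Acsm3 (0.0078) and 0.97 for Myom3 (0.044), each a smaller fall or an opposite change on HFD. Since these genes were picked for large ND changes, smaller HFD changes among them are favoured by the choice. The other 14 genes did not pass this test. Of the 14 that passed, 10 did so under each of the other settings run. The interaction of Cidea did not pass with edgeR (adjusted p = 0.069). That of Unc79 ended with edgeR (adjusted p = 0.073) and without ND_WT 1 (0.066), ND_WT 2 (0.054) or ND_TKO 2 (0.064). That of Vstm2b ended without ND_WT 3 (adjusted p = 0.061), ND_TKO 2 (0.052) or ND_TKO 3 (0.081). That of Myom3 ended in 7 of them, at an adjusted p of 0.051 to 0.10.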

How the results depend on the processing

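The total of 889 calls moved by over 1.5 times under several settings. In a fit of the 6 ND libraries alone it was 280, with 94 higher and 186 lower. DESeq2 gave 1400, with 734 higher and 666 lower. Leaving out 1 library gave 350 to 1853 calls, with 129 to 875 higher and 221 to 978 lower; the lowest value was without ND_WT 1 and the highest without ND_WT 3. TMM scaling without ND_WT 3 gave 1964, with 1105 higher and 859 lower, and the ND libraries alone without ND_WT 3 gave 534 higher. Of 87 called genes named in the text, not counting G0s2 and Pde4d, 53 kept their call under every setting and none turned direction. Of 28 uncalled ones 10 gained a call somewhere.

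Replicate numbers did not pair the libraries: same-numbered ND_WT and ND_TKO libraries had deviations that correlated at -0.50, -0.05 and -0.03, and no library correlated best with its own number. The highest correlations were 0.54, of ND_WT 1 with ND_TKO 2, and 0.42, of ND_WT 3 with ND_TKO 1. What these pairs share was not tested, and a block by replicate number does not model it. The fit with a replicate block gave 751 calls, 293 higher and 458 lower. No gene of the epididymis epithelium list passed a filter at 1 CPM, so that setting gave it no median. Depth limits the low genes, where 3 reads are 0.133 to 0.143 CPM.

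Sign turned only for genes that did not pass. With 1 library left out, the log2 change of Tet2 lay between -0.25 and 0.10 (0.10 without ND_WT 1, 0.049 without ND_TKO 1 and 0.023 without ND_TKO 3), and with limma-voom it was 1.1e-04. Hdac1 was 0.0039 with TMM scaling, 0.042 with that and without ND_WT 3, 0.0037 with edgeR, 0.0040 with limma-voom and 0.0013 with DESeq2. Lep lay between -0.89 and 0.31 over the single libraries left out; it was 0.31 without ND_WT 3, the same in the ND fit without it, and 0.36 with TMM scaling without it. Pnpla2 (-0.13 to 0.15) was -0.13 in the same first pair of settings, -0.073 in the last and -0.023 without ND_TKO 3. Srebf1 (-0.11 to 0.11) was -0.11, -0.061 and -0.013 there. Plin1 (-0.085 to 0.060) was 0.053 with TMM scaling and limma-voom, 0.051 with edgeR, 0.049 with DESeq2, and 0.060, 0.0094 and 0.027 without ND_WT 1, ND_WT 2 and ND_TKO 2. Ppargc1a (-0.48 to 0.087) was 0.087 without ND_WT 1 and 0.0012 without ND_TKO 3. Prdm16 (-0.014 to 0.15) was -0.014 without ND_WT 2 and -0.0031 without ND_TKO 2. Itgax (-0.17 to 0.41) was -0.0080 without ND_WT 1 and -0.17 without ND_TKO 1, and Tnf (-0.17 to 3.4e-04) 3.4e-04 without ND_WT 2. On HFD, Dpysl3 was 0.036 with TMM scaling and 0.039 with edgeR. The cause was not tested.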

Other observations

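The genes next to 28 of the 30 genes with the largest ND changes were also read. Of 56 neighbours 13 were called (23.2%, beside 5.7% of all tested genes), 9 of them in the direction of the gene beside them. Of those 9, 5 overlap that gene and may share its reads. Crtac1, a matrix protein gene next to Golga7b, was at 29.5, 23.8 and 54.9 CPM in ND_WT and 7.20, 13.7 and 12.6 CPM in ND_TKO (log2 change -1.56 ± 0.29, adjusted p = 0.0095). Tmem221, next to Nxnl1, was at 3.53, 2.58 and 2.78 CPM in ND_WT and 0.693, 0.973 and 1.11 CPM in ND_TKO (log2 change -1.04 ± 0.17, adjusted p = 0.0044). Ucp2 beside Ucp3 was a called neighbour with the opposite direction. With genes that share reads counted once, the share of called genes per chromosome lay between 4.11% (chromosome 5) and 8.14% (chromosome 15).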
